A study of Neurospora crassa with 8 samples.

Results

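The step from 60 to 120 min of light was examined in *wt* mycelia of the filamentous fungus *Neurospora crassa*, for every annotated gene with at least 20 sense reads at 120 or at 60 min. This minimum was met by 7817 of the 9733 counted genes. The remaining 1916 genes had fewer reads in both libraries and were left out. The cultures of this course were mycelia of the wild-type strain 74-OR23-1VA, kept in liquid medium at 25 °C. They spent 1 day in light and 24 h in darkness, followed by light of 100 μE for 120 min or for 60 min. Cultures harvested after 30 min of light and without light (dark) went through the same steps and serve here as the course on which the last hour is placed. A last comparison uses 3 further libraries from mycelia that stayed in the light for all 48 h of growth, labelled Δ*wc1* (genotype Δ*wc1*::hyg), Δ*wc2* (genotype Δ*wc2*::hyg) and *wt*. Each time point has 1 strand-specific library of polyadenylated RNA, so that no value below is backed by a replicate and no p-value is given. The ratio of 120 to 60 min was taken between counts per 1000000 sense gene reads (CPM), with an exact (Clopper-Pearson) 95% interval. Such an interval covers only the error of counting, for this pair of libraries, and not the spread between cultures.

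In *Neurospora*, blue light is sensed by the White Collar Complex (WCC), a transcription factor made of the photoreceptor WC-1 and its partner WC-2. Light activates the WCC within minutes, and it switches on genes of carotenoid synthesis, DNA repair, asexual spore formation (conidiation) and the circadian clock. One of its targets encodes the small photoreceptor VIVID (VVD), which binds the activated WCC and dampens it. In continued light many of the induced transcripts therefore decline again, which is known as photoadaptation. Which transcripts had declined, held or increased in the last hour is the question of the comparison of 120 with 60 min.

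The 60 min library stood apart from the others. The 120 min library held 9725970 sense gene reads, against 21422091 at 60 min, which is 2.20 times as many. Reads outside of genes made up 9.03% of its alignments, against 13.4% to 14.5% in the 3 other libraries. Alignments that were not unique made up 5.58% at 120 min and 2.99% at 60 min. In another respect the 120 min library differed, since its 20 genes with the most reads took 12.9% of the gene reads, against 15.6% to 15.9% in the 3 other libraries. The part of these differences in the results below was not tested. A floor of 3 reads corresponds to 0.308 CPM at 120 min and 0.140 CPM at 60 min. The transcript of *hex-1*, the major protein of the Woronin bodies that plug hyphal pores, was abundant in both libraries, with 2805 CPM at 120 min and 1889 CPM at 60 min.

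Most transcripts differed little between 120 and 60 min of light. The median ratio of all 7817 genes was 1.16, or 0.21 on the log2 scale, with quartiles at −0.05 and 0.48. Of all genes, 179 (2.29%) were at least 2-fold lower and 382 (4.89%) at least 2-fold higher at 120 min. For 116 of the lower genes (1.48% of all genes) and 146 of the higher genes (1.87%) the whole interval of the ratio lay beyond 2-fold. The balance of both directions depended on the scaling of the libraries. Higher genes made up 68.1% of those past 2-fold with CPM, but 39.4% with median-of-ratios factors (284 lower, 185 higher) and 41.6% with TMM factors (275 lower, 196 higher), both of which bring the median of all genes to about 0. Each of the 5 other scalings moves all log2 ratios down, by at most 0.22, so that lower genes cannot lose their call and higher genes can. Of the 382 higher genes, 185 stayed past 2-fold under each scaling tried. With the 30 min library in place of the 60 min library, 314 genes were lower and 727 higher at 120 min. Where a gene or list is set against the median of all genes, the difference does not depend on the scaling.

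**Figure D1:**
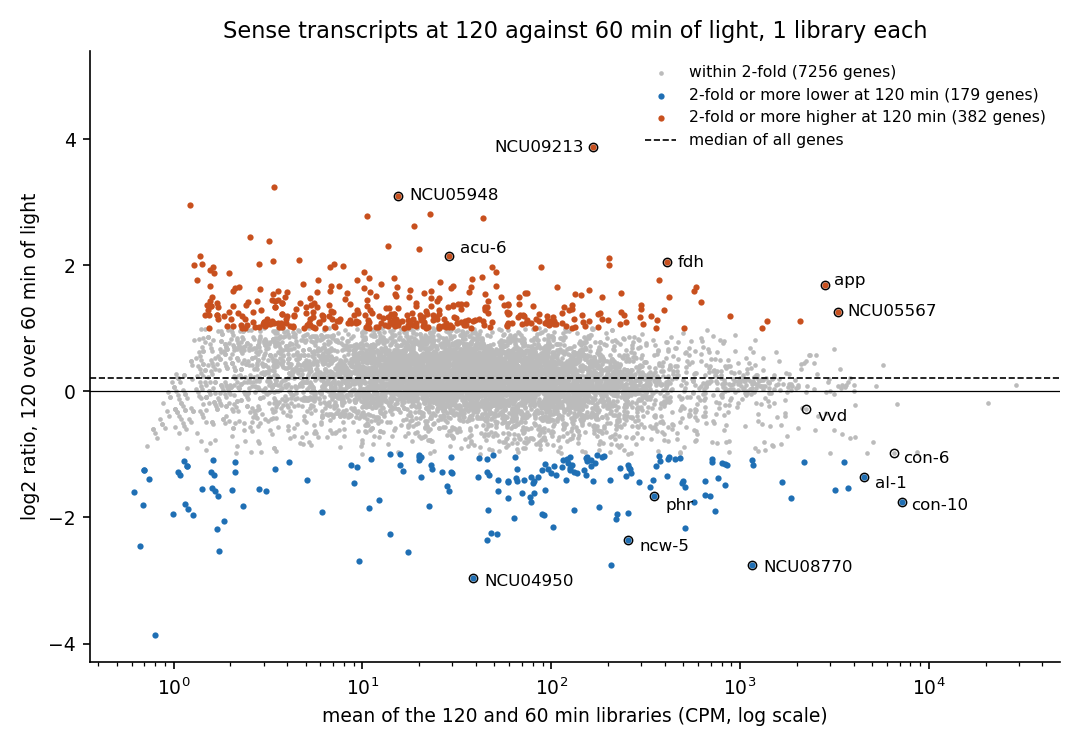
Log2 ratio of 120 to 60 min (vertical axis) against the mean level of both libraries (horizontal axis, CPM, log scale), 1 point per gene for 7817 genes. Of these, 179 genes lie at least 2-fold lower and 382 at least 2-fold higher at 120 min, and the dashed line marks the median of all genes at 0.21. The points of weakly expressed genes spread more widely, and con-10 and al-1 are among the abundant transcripts that were lower.

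The higher genes were mostly weakly expressed. Among the 1955 genes with the lowest mean level, 9.36% were at least 2-fold higher and 2.30% at least 2-fold lower at 120 min. Among the 1954 genes with the highest level, 3.28% were higher and 4.25% lower. The median level of the 382 higher genes was 22.3 CPM at 120 min and 9.22 CPM at 60 min. The 179 lower genes had a median of 39.6 CPM at 120 min and 119 CPM at 60 min, and 32 of them had fewer than 100 reads in the library with more reads. Together the lower genes held 30544 CPM at 120 min, against 82915 CPM at 60 min.

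Transcripts that light had induced declined more often than others. To avoid choosing genes by the 60 or 120 min library, induced genes were taken from the other libraries, as those with at least 20 reads at 30 min and at least 4-fold above the dark library. There were 143 such genes. Their median ratio of 120 to 60 min was 0.458 (−1.13 on the log2 scale), and 139 of them lay below the median of all genes. At least 2-fold lower were 78 of the 143 (54.5%), against 2.29% of all genes, and 1 was at least 2-fold higher. Among the 7674 other genes, 101 were lower and 381 higher. The 60 min library was also taken out of the ratio, with genes induced at 60 min and the ratio of 120 to 30 min. Of 138 such genes, 69 were at least 2-fold lower, against 314 of all 7751 genes. Their median log2 ratio was −1.01, against 0.20 for all genes. The summed level of the induced genes was 7412 CPM in the dark, 94205 CPM at 30 min, 100653 CPM at 60 min and 52756 CPM at 120 min.

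The opposite held for genes that light had lowered. Of 58 genes at least 4-fold below the dark library at 30 min, 33 (56.9%, against 4.89% of all genes) were at least 2-fold higher at 120 than at 60 min and 0 were 2-fold lower. Their median ratio was 2.23. With a limit of 2-fold at 30 min, 399 genes (5.18% of those measured) had gone up, of which 125 were lower at 120 than at 60 min and 3 were higher. A further 571 genes (7.41%) had gone down, of which 1 was lower and 172 were higher. Across the 7709 genes with at least 20 reads at 30 min or in the dark, the log2 ratio of 120 to 60 min was related to that of 30 min to dark with Pearson's r of −0.62 and Spearman's rho of −0.57. Both ratios come from different libraries, and genes are not independent replicates. By TMM factor the libraries fall into pairs, with 1.06 in the dark and 1.08 at 120 min, against 0.932 at 30 min and 0.934 at 60 min. A difference between these pairs of libraries would enter both ratios with opposite sign, and its part in the relation was not tested. With at least 100 reads in all 4 libraries (6206 genes), the values were −0.65 and −0.60.

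**Figure D2:**
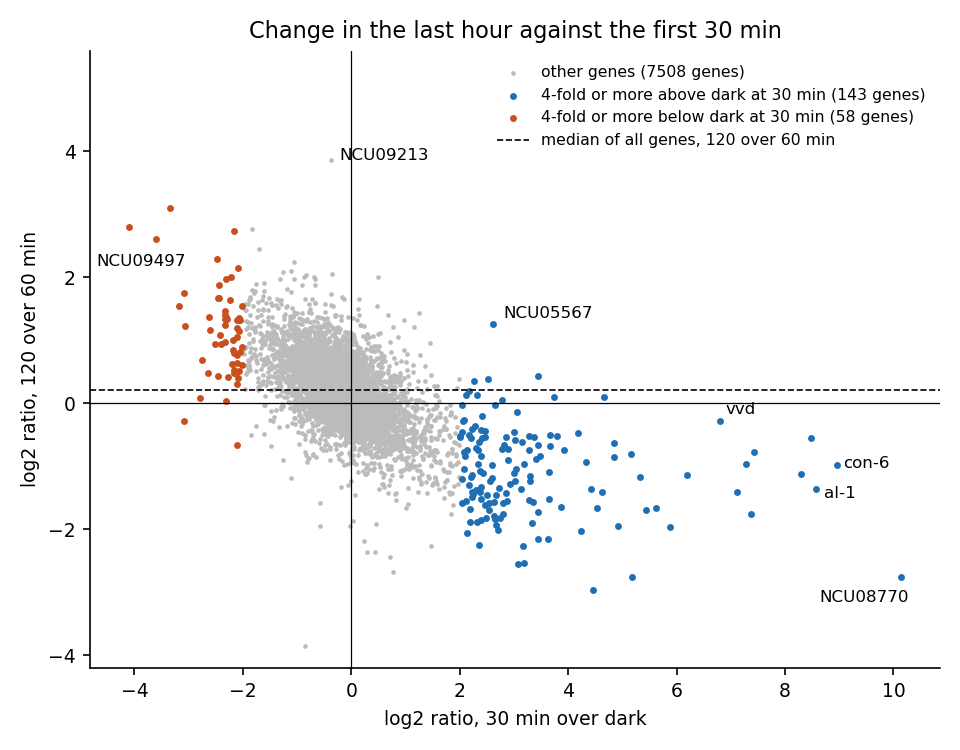
Log2 ratio of 120 to 60 min (vertical axis) against log2 ratio of 30 min to dark (horizontal axis), 1 point per gene for 7709 genes. Of the 143 genes at least 4-fold above dark at 30 min (blue), 139 lie below the median of all genes (dashed line), and of the 58 genes at least 4-fold below dark (orange), 54 lie above it. NCU05567 stands out as an induced gene that was still higher at 120 min.

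The decline of the induced genes was mostly partial. Among the 143 induced genes, 93 had their highest level at 30 min, 46 at 60 min and 4 at 120 min. Of all 7817 genes, these counts were 1435, 890 and 2896 in this order. The choice of the induced genes by the ratio of 30 min to dark favors the 30 min library and excludes the dark library. At 120 min, 97 of the induced genes were still at least 2-fold above the dark library (4.25% of all genes were). The induced genes were also chosen by their ratio to this dark library, and a low dark count favors both ratios. The share of the rise above dark at 60 min that was left at 120 min had a median of 34.7%, with quartiles at 19.5% and 57.1%. Of all 179 lower genes, 115 (64.2%, against 93.7% of all genes) were within 2-fold of the dark level at 120 min, 47 were still at least 2-fold above it (4.25% of all genes were) and 17 were at least 2-fold below it (2.1% of all genes were).

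The conidiation genes *con-10* and *con-6* and the gene next to *con-6*, NCU08770, were among the most strongly induced and differed in how much was left. *con-10* had 31917 reads at 120 min, against 237534 at 60 min. Its level was 30.1 CPM in the dark, 4976 CPM at 30 min, 11088 CPM at 60 min and 3282 CPM at 120 min, and its ratio of 120 to 60 min was 0.296 (0.293 to 0.299). *con-10* thus reached its highest level at 60 min and had lost most of it an hour later. NCU08770 had 2913 reads at 120 min, against 43221 at 60 min, a ratio of 0.148 (0.143 to 0.154). It went through 1.43 CPM in the dark, 1612 CPM at 30 min, 2018 CPM at 60 min and 299.5 CPM at 120 min, so that 14.8% of the rise was left. *con-6* had 42798 reads at 120 min, against 184961 at 60 min, a ratio of 0.510 (0.504 to 0.515), and kept 50.9% of its rise. It was not counted as lower with CPM, but passed 2-fold under all 5 other scalings. Per kb of gene, *con-6* stood at 4967 CPM at 120 min and 9745 CPM at 60 min, and NCU08770 at 412 CPM per kb at 120 min and 2775 CPM per kb at 60 min.

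The other conidiation genes differed in direction. *con-8* was induced as well, but had 37184 reads at 120 min, against 63867 at 60 min, which is a ratio of 1.28 (1.27 to 1.30). It stayed above 1 with all other scalings, where its log2 ratio was at least 0.14. *eas*, which encodes the hydrophobin of the conidial surface, had a log2 ratio of 0.67, and *fl*, the main transcriptional regulator of conidiation, had a log2 ratio of 0.59. Neither was induced at 30 min. *csp-2*, a transcription factor needed for the separation of conidia, went the other way with 748 reads at 120 min, against 3608 at 60 min, a ratio of 0.457 (0.421 to 0.494). It was at 88.2 CPM in the dark, 414 CPM at 30 min, 168 CPM at 60 min and 76.9 CPM at 120 min, so that it had returned to the dark level. Of the 9 measured genes of the conidiation list, 2 were at least 2-fold lower (2.29% of all genes were) and 0 higher (4.89% of all genes were).

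Of the 6 genes in the list of carotenoid synthesis, 2 were at least 2-fold lower and 0 higher, against 2.29% and 4.89% of all genes. The pathway makes the orange pigment neurosporaxanthin. *al-1*, the phytoene desaturase, had 24764 reads at 120 min, against 139701 at 60 min, a ratio of 0.390 (0.385 to 0.396). *cao-2*, the dioxygenase that cleaves torulene, had 1850 reads at 120 min, against 10753 at 60 min, a ratio of 0.379 (0.361 to 0.398). Both were past 2-fold and had peaked at 30 min, *al-1* at 10832 CPM and *cao-2* at 1072 CPM. *al-2*, the phytoene synthase, and *al-3*, which makes the precursor geranylgeranyl diphosphate, had ratios of 0.600 and 0.606 and stayed within 2-fold. These 4 genes were the induced ones of the list. *ylo-1*, the aldehyde dehydrogenase of the last step, was not induced and had a log2 ratio of 0.27. *cao-1*, a dioxygenase related to *cao-2* and placed in the list by its symbol, was not induced. It had 163 reads at 120 min, against 250 at 60 min, a ratio of 1.44. Over the 6 genes of the list, the median log2 ratio was −0.73, against 0.21 for all genes.

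Of the DNA repair genes, 3 were induced. *phr*, the photolyase that repairs UV damage with light, had 1627 reads at 120 min, against 11376 at 60 min, a ratio of 0.315 (0.299 to 0.332). It was at 18.3 CPM in the dark, 901 CPM at 30 min, 531 CPM at 60 min and 167 CPM at 120 min. *mus-18*, the UV damage endonuclease, had its highest level at 60 min and lost less. Its level was 5.41 CPM in the dark, 75.4 CPM at 30 min, 122 CPM at 60 min and 85.3 CPM at 120 min, a ratio of 0.697 (0.644 to 0.754). *mus-40*, the third induced gene of the list, had a ratio of 0.700. Among all 35 measured repair genes 1 was at least 2-fold lower and 1 higher, shares near those of all genes (2.29% and 4.89%), and their median log2 ratio of 0.14 was close to that of all genes. The higher gene was *msh1*, named after the mitochondrial mismatch repair gene of yeast, with 244 reads at 120 min against 258 at 60 min, a ratio of 2.08 (1.74 to 2.49), which fell below 2 under all 5 other scalings.

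**Figure D3:**
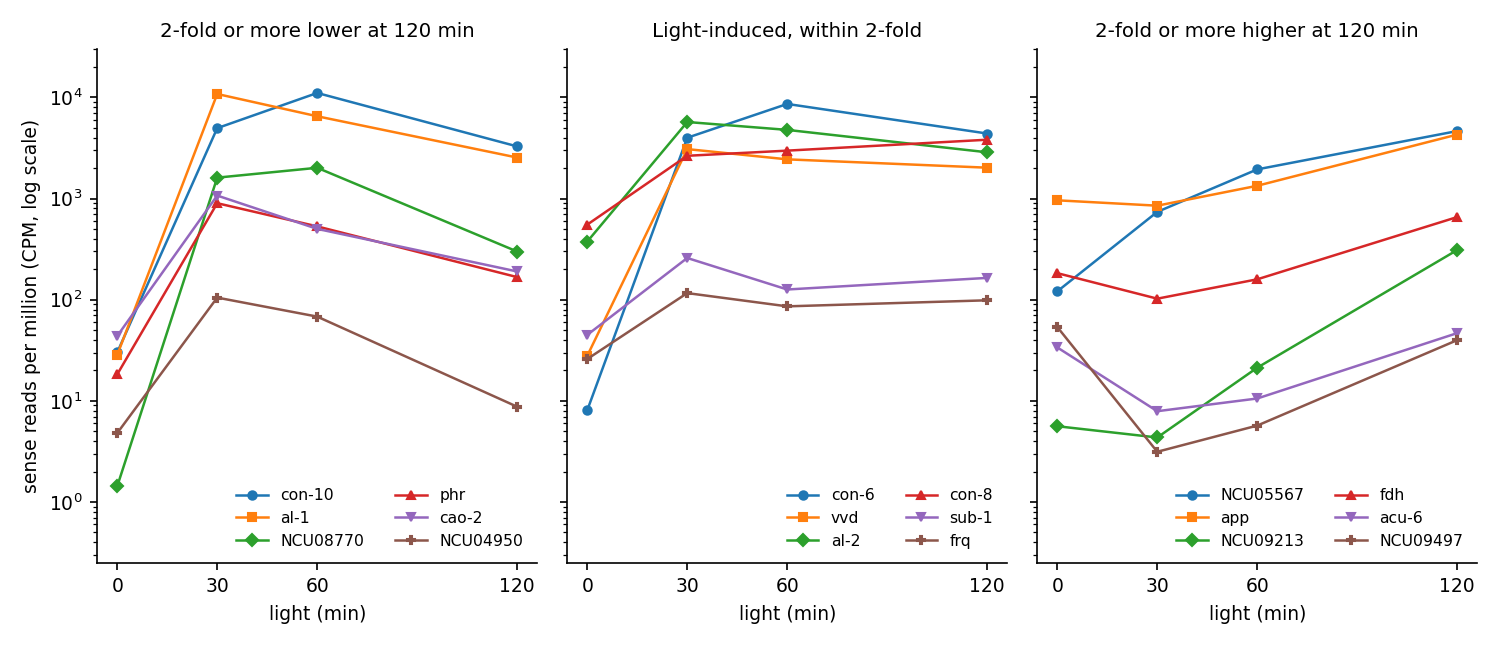
Levels of 18 genes (CPM, log scale) after 0 (dark), 30, 60 and 120 min of light, 1 library per time point, joined by lines. Left, genes at least 2-fold lower at 120 than at 60 min, such as con-10 (3282 CPM at 120 min, 11088 CPM at 60 min). Middle, induced genes that stayed within 2-fold. Right, genes at least 2-fold higher, of which NCU05567 had been induced at 30 min and NCU09497 had gone down.

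The transcripts of the light receptors themselves stayed within 2-fold. *vvd* had 19667 reads at 120 min, against 52377 at 60 min, a ratio of 0.827 (0.814 to 0.841). With 27.8 CPM in the dark, 3088 CPM at 30 min, 2445 CPM at 60 min and 2022 CPM at 120 min, it kept 82.5% of its rise. *cry*, the cryptochrome, had a ratio of 0.680 (0.666 to 0.695) and kept 67.9%. *wc-1* was close to the dark level again, with 20.5 CPM in the dark, 47.7 CPM at 30 min, 36.4 CPM at 60 min and 22.4 CPM at 120 min, so that 12.1% of its rise was left. *wc-2*, which was not induced, had a ratio of 1.30. Of the genes for the other receptors, the opsin gene *nop-1* had a ratio of 0.826 and the phytochrome gene *phy-1* a ratio of 1.89 (107 reads at 120 min, 125 at 60 min). *phy-2* had 19 reads at 120 min and 39 at 60 min, too few to tell a difference (1.07, 0.586 to 1.90). Of these 7 genes, 0 were past 2-fold in either direction, where 2.29% of all genes were lower and 4.89% higher, so that a list of this size can be expected to hold few. Their median log2 ratio was −0.27.

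The clock gene *frq*, which encodes the negative element of the circadian oscillator, differed little between 120 and 60 min. It had 960 reads at 120 min, against 1842 at 60 min, with the ratio between 1.06 and 1.24. Its level was 25.9 CPM in the dark, 116 CPM at 30 min, 86.0 CPM at 60 min and 98.7 CPM at 120 min. The direction of this small difference depended on the scaling, since the log2 ratio of 0.20 became −0.02 with median-of-ratios factors. *frh*, the partner of *frq*, had a ratio of 1.01, and *prd-4*, a checkpoint kinase that links DNA damage to the clock, had a ratio of 0.668. Of the 10 clock genes, 0 were past 2-fold (2.29% of all genes were lower and 4.89% higher).

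Among the 11 transcription factor genes linked to light, *csp-2* was lower and *vad-1* just past 2-fold higher (2.29% of all genes were lower and 4.89% higher). *vad-1* had 154 reads at 120 min and 168 at 60 min, a ratio of 2.02 that fell below 2 under all 5 other scalings. *sub-1*, a GATA factor of the light response, dipped and came back. It was at 44.9 CPM in the dark, 259 CPM at 30 min, 126 CPM at 60 min and 164 CPM at 120 min, a ratio of 1.30 (1.22 to 1.39) that stayed above 1 with every scaling. The induced genes *bek-1* and *rca-1* had ratios of 0.652 and 0.784. *sah-1*, which was under 4-fold at 30 min, had a ratio of 0.833, and *csp-1*, a repressor that light induces for a short time, had a ratio of 0.843.

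Of the genes named for regulation by blue light, *bli-4* had 13416 reads at 120 min, against 64549 at 60 min, a ratio of 0.458 (0.449 to 0.466), and kept 45.6% of its rise. *bli-3* had 57351 reads at 120 min, against 247052 at 60 min, a ratio of 0.511 (0.507 to 0.516). Like *con-6*, it passed 2-fold under all 5 other scalings. At 5897 CPM it was still among the 5 genes with the most reads at 120 min. The others of these were NCU06110, *nmt-1* of thiamine synthesis, the translation elongation factor gene *tef-1* and the clock-controlled gene *ccg-1*. Their ratios were 1.08, 0.874, 1.34 and 0.873 in this order.

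**Figure D4:**
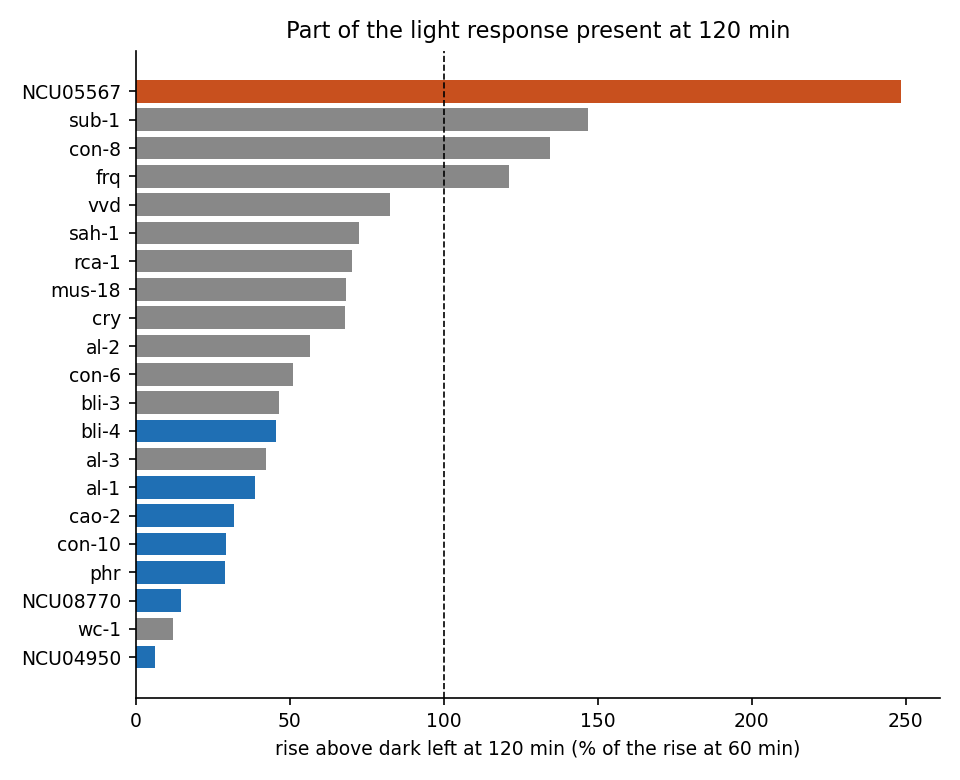
Share of the rise above the dark level at 60 min that was left at 120 min (horizontal axis, %), 1 bar per gene. The 21 genes were picked from those raised by light, and wc-1 and sah-1 among them were under 4-fold above dark at 30 min. Blue bars mark genes at least 2-fold lower at 120 than at 60 min, the orange bar a gene at least 2-fold higher, and the dashed line the level of 60 min. The share was 6.24% for NCU04950, 82.5% for vvd and 249% for NCU05567.

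The genes with the largest declines carry no name in the annotation, except 1. By a rule of at least 100 reads and an interval beyond 2-fold, the 10 lowest ratios ran between 0.128 and 0.210. NCU04950 came first with 85 reads at 120 min, against 1458 at 60 min, a ratio of 0.128 (0.102 to 0.160). Its sense level was 4.79 CPM in the dark, 105 CPM at 30 min, 68.1 CPM at 60 min and 8.74 CPM at 120 min, a pulse of which 6.24% was left. Antisense reads at NCU04950 exceeded its sense reads at 120 min (771) and at 60 min (1697). Their log2 ratio of 120 to 60 min was −0.15, and their part in the sense counts was not tested. NCU01089 had 518 reads at 120 min, against 7710 at 60 min, and NCU07923 had 173 reads at 120 min, against 1822 at 60 min. Both were induced as well, and they kept 10.7% and 10.99% of their rise, in this order. NCU08770, NCU04725 and NCU04641 were the other induced genes of the 10. NCU06400, NCU03235 and NCU03213 were not induced 4-fold at 30 min. NCU03235 had 17.8 CPM in the dark, 24.3 CPM at 30 min, 76.9 CPM at 60 min and 15.01 CPM at 120 min, so that it was at least 2-fold above dark in the 60 min library alone.

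The named gene was *ncw-5*, which encodes a cell wall protein. It had 810 reads at 120 min, against 9169 at 60 min, a ratio of 0.195 (0.181 to 0.209). *ncw-5* had not been induced, with 464 CPM in the dark, 568 CPM at 30 min and 428 CPM at 60 min, and at 83.3 CPM after 120 min it had a ratio of 0.180 to the dark library. A second gene of this name, *ncw-3*, moved likewise and was chosen after its values were seen. It had 21741 reads at 120 min, against 104064 at 60 min, with levels of 5172 CPM in the dark, 6154 CPM at 30 min, 4858 CPM at 60 min and 2235 CPM at 120 min. *ncw-5* and *ncw-3* were 2 of the 17 lower genes that ended at least 2-fold below the dark level.

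Of the induced genes, NCU05567 alone was at least 2-fold higher at 120 min. It had 45313 reads at 120 min, against 41693 at 60 min in the library that was more than 2-fold deeper, a ratio of 2.39 (2.36 to 2.43). Its level increased at every step, from the dark on, with 121 CPM in the dark, 739 CPM at 30 min, 1946 CPM at 60 min and 4659 CPM at 120 min. The ratio stayed above 2 with all other scalings, where the log2 value was at least 1.04. Together with *frq*, *con-8*, *sub-1* and NCU08727 (a ratio of 1.10), it made up the 5 induced genes with the highest ratio and at least 100 reads.

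The higher genes took more than 1 course. At 30 min, 172 of the 382 had been at least 2-fold below dark (7.41% of all measured genes were), 189 within 2-fold of it and 3 at least 2-fold above it, and 18 had too few reads. In 272 of the 382, the 120 min library had the highest level of the 4 libraries (in 2896 of all 7817 genes). In 109 of the 382, the dark library did (in 2596 of all 7817 genes). The choice of these genes by the ratio of 120 to 60 min favors the 120 min library and excludes the 60 min library. At 120 min, 304 genes were within 2-fold of the dark library (79.6%, against 93.7% of all genes), 69 were at least 2-fold above it (18.1%, against 4.25%) and 9 at least 2-fold below it. The 120 min level of the higher genes had a median ratio of 1.28 to the dark library (1.02 for all genes). The 60 min level, by which these genes were also chosen, had a median ratio of 0.539 (0.880 for all genes).

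The gene NCU09213 had the highest ratio with at least 100 reads. It had 3020 reads at 120 min, against 456 at 60 min, a ratio of 14.6 (13.2 to 16.1). NCU09213 was at 5.61 CPM in the dark, 4.34 CPM at 30 min, 21.3 CPM at 60 min and 311 CPM at 120 min, which is a late increase to far above the dark level. The other 9 genes with the highest ratios were NCU05948, NCU09497, NCU04963, NCU03415, NCU12062, NCU09782, NCU06062, *acu-6* and NCU03092, with ratios between 4.31 and 8.55. All 10 stayed past 2-fold with every scaling. Most of them had gone down first. NCU09497 was at 53.7 CPM in the dark, 3.13 CPM at 30 min, 5.70 CPM at 60 min and 39.9 CPM at 120 min. NCU05948 was at 21.5 CPM in the dark, 2.11 CPM at 30 min, 3.22 CPM at 60 min and 27.6 CPM at 120 min. NCU03415 and NCU03092 dipped too, but ended above the dark level, NCU03415 with 75.8 CPM at 120 min, against 14.9 CPM in the dark, and NCU03092 with 327 CPM at 120 min, against 89.4 CPM in the dark.

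*acu-6*, the phosphoenolpyruvate carboxykinase needed for growth on acetate, had 455 reads at 120 min, against 226 at 60 min, a ratio of 4.43 (3.77 to 5.22). It went through 33.8 CPM in the dark, 7.90 CPM at 30 min, 10.5 CPM at 60 min and 46.8 CPM at 120 min. *acu-5*, the acetyl-CoA synthetase, was the other higher gene among 6 genes of acetate use (4.89% of all genes were higher), with 4139 reads at 120 min, against 3710 at 60 min, a log2 ratio of 1.30. *acu-3*, the isocitrate lyase, was at 189 CPM at 120 min and 183 CPM at 60 min. The median of these 6 genes was 0.52 on the log2 scale, 0.31 above the median of all genes.

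Other abundant transcripts with names were also higher. *app*, which encodes an abundant protein of the fruiting body, had 41849 reads at 120 min, against 28702 at 60 min, a ratio of 3.21 (3.16 to 3.26), and was at 962 CPM in the dark, 851 CPM at 30 min, 1340 CPM at 60 min and 4303 CPM at 120 min. The genes that follow were chosen after their values were seen. *fdh*, a formate dehydrogenase, had 6394 reads at 120 min, against 3411 at 60 min, which is 2.05 on the log2 scale. It ended above the dark level, with 183 CPM in the dark, 102 CPM at 30 min, 159 CPM at 60 min and 657 CPM at 120 min. The invertase gene *inv* had 112 CPM at 120 min and 38.0 CPM at 60 min. The neighbors by number *gcy-1* and *cut-1* had log2 ratios of 1.49 and 1.76. *gcy-1* was at 488 CPM in the dark, 148 CPM at 30 min, 220 CPM at 60 min and 618 CPM at 120 min. *cut-1* was at 361 CPM in the dark, 42.6 CPM at 30 min, 170 CPM at 60 min and 576.5 CPM at 120 min, so that both had first gone down in the light. The inositol synthesis gene *inl* followed the same course, with 537 CPM in the dark, 196 CPM at 30 min, 166 CPM at 60 min and 429 CPM at 120 min.

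Genes of the lists outside of the light response were mostly within 2-fold. With 2.29% of all genes lower and 4.89% higher, short lists can be expected to hold few such genes or none. There were 0 genes past 2-fold in 8 lists, namely heat shock (12 genes), ribosomal proteins (8), proteasome (17), histones (9), respiratory chain (40), mitochondrial import (21), vacuolar ATPase (14) and peroxisome (20). Their medians still differed. The respiratory chain genes had a median log2 ratio of 0.18, close to that of all genes. The subunits of the vacuolar ATPase, the proton pump of the vacuole, had a median of −0.06, and 13 of 14 lay below the median of all genes. Histone genes had a median of 0.40 and peroxisome genes of 0.37. Chitin synthases (5), nitrogen metabolism (11), glycogen and trehalose (4) and thiamine synthesis (2) also had 0 genes past 2-fold.

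Amino acid synthesis genes lay low as a group without passing 2-fold. Of 56 genes, 46 were below the median of all genes, 3 were at least 2-fold lower (5.36%, against 2.29% of all genes) and 0 were higher. Their median log2 ratio was −0.24, with a difference of −0.45 from that of all genes. The lowest was *ilv-5* of the branched-chain amino acids, with 2830 reads at 120 min, against 13057 at 60 min, a ratio of 0.477 (0.458 to 0.497). It was at 307 CPM in the dark, 573 CPM at 30 min, 610 CPM at 60 min and 291 CPM at 120 min, so that a moderate rise had ended. *cys-11* and *aro-3* were the others, with log2 ratios of −1.03 and −1.01. The highest was *cys-18*, with a ratio of 1.75.

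Glycoside hydrolases, the enzymes that break down polysaccharides, lay high. Of 59 measured genes, 8 were at least 2-fold higher (13.6%, against 4.89% of all genes) and 1 lower, with a median log2 ratio of 0.44. A further 20 genes of the list had too few reads. Most of the 8 were weakly expressed, such as *gh11-1* with 33 reads at 120 min and 23 at 60 min, and the interval lay beyond 2-fold for 2 of them. One of these was *gh31-3*, with 225 reads at 120 min, against 157 at 60 min, a ratio of 3.16 (2.56 to 3.90). Its antisense reads were more numerous, with 1285 at 120 min and 1324 at 60 min, a log2 ratio of 0.94. The other of these 2 genes was *gh28-2*, with 624 reads at 120 min, against 547 at 60 min. It was at 6.73 CPM in the dark, 3.62 CPM at 30 min, 25.5 CPM at 60 min and 64.2 CPM at 120 min.

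Genes of hyphal growth and fusion had the highest median of the 26 lists, 0.53 on the log2 scale, with 11 of 15 genes above the median of all genes. Only *ham-6*, which is needed for the fusion of hyphae, was past 2-fold, with 397 reads at 120 min, against 345 at 60 min, a ratio of 2.53 (2.19 to 2.94). Among 10 genes of sexual development, *app* and the pheromone receptor gene *pre-2* were higher, the second with only 20 reads at 120 min and 13 at 60 min. In the list of oxidative stress, the catalase gene *cat-4* was lower, with 225 reads at 120 min, against 1269 at 60 min, a ratio of 0.391 (0.337 to 0.450). *nor-1*, the regulator of the NADPH oxidases, had a ratio of 2.05, which fell below 2 under all 5 other scalings. Of all genes, 2.29% were lower and 4.89% higher, so that lists as short as these 3 can be expected to hold few such genes.

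**Figure D5:**
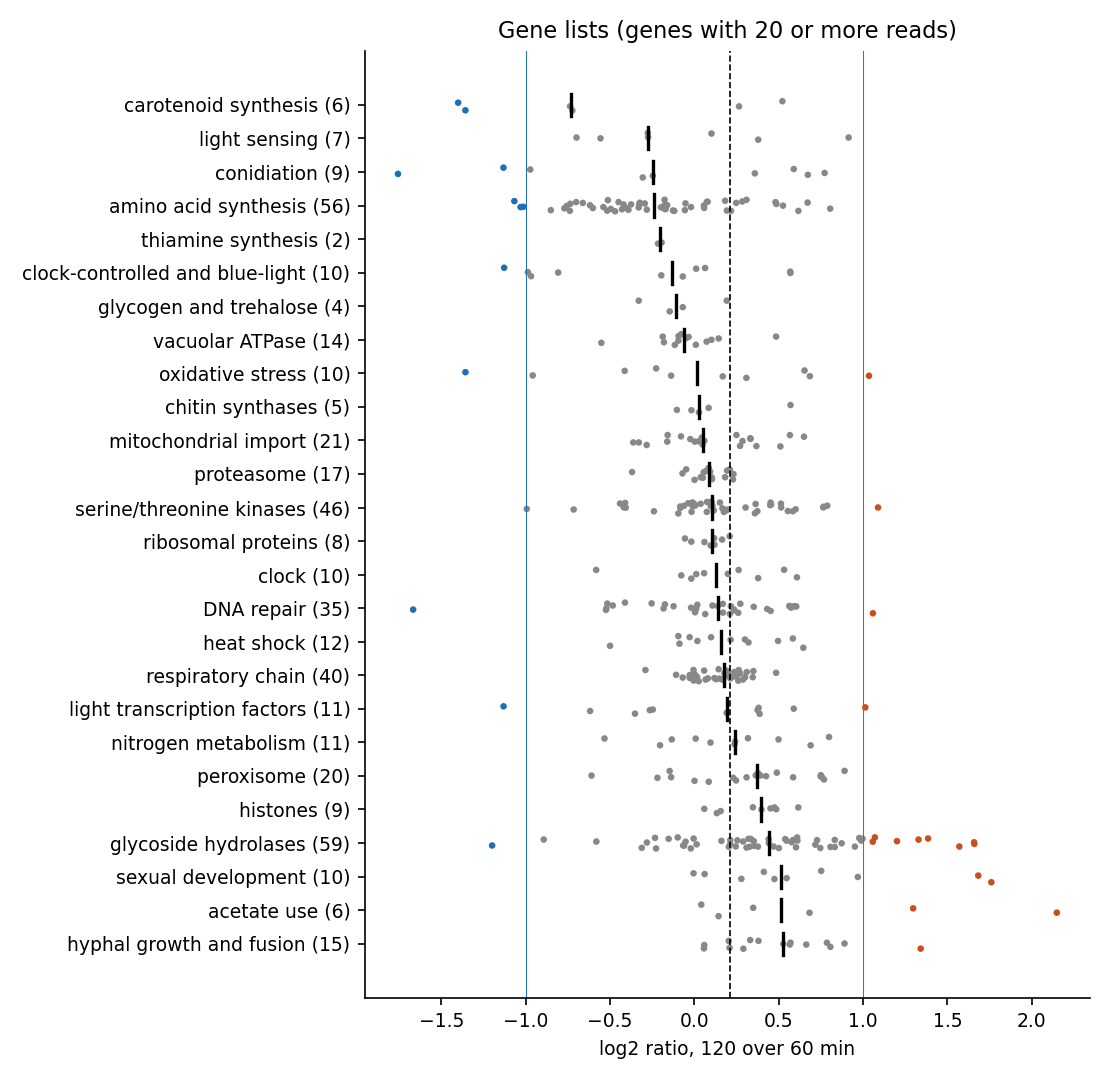
Log2 ratio of 120 to 60 min (horizontal axis) of the measured genes of 26 lists, 1 point per gene, with the number of genes in brackets and a black bar at the median of each list. Blue points are at least 2-fold lower and orange points at least 2-fold higher at 120 min, thin lines mark 2-fold, and the dashed line marks the median of all genes (0.21). The carotenoid list has the lowest median (−0.73) and the list of hyphal growth and fusion the highest (0.53).

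Called genes sat side by side in a few places. In the order of the RefSeq annotation (NC12), 28 of 169 lower genes (16.6%) and 53 of 369 higher genes (14.4%) had a direct neighbor with the same call. Of 6199 adjacent pairs of measured genes, 15 were both lower and 28 both higher. With 2.29% of all genes lower and 4.89% higher, and a neighbor on either side, some like neighbors can be expected. The share expected from placement alone was not computed. Runs of 3 occurred at NCU01058 to NCU01060 and NCU10010 to NCU10012 among the lower genes. In the first run NCU01060 had 3039 reads at 120 min, against 24910 at 60 min, a ratio of 0.269, while the genes beside it, NCU01058 and the glycoside hydrolase gene *gh47-3*, had far fewer reads, with 8 and 55 at 120 min, against 53 and 278 at 60 min. In the second run NCU10011 had 757 reads at 120 min, against 5978 at 60 min. Among the higher genes, runs of 3 occurred at NCU09186 to NCU09188 (NCU09186 fell to 0.88 on the log2 scale with median-of-ratios factors, which ends this run), NCU06326 to NCU06328 and NCU06061 to NCU06063. NCU06326 was the most abundant of these, with 249 CPM at 120 min and 106 CPM at 60 min.

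The antisense strand was counted for the same genes. Antisense reads reached the minimum in 1913 genes, of which 223 (11.7%) were at least 2-fold lower and 83 (4.34%) at least 2-fold higher at 120 min. For the 62 of them whose sense transcript was lower with an interval beyond 2-fold, the median antisense log2 ratio was −0.80, against 0.02 for all 1913. Where antisense reads exceeded 1% of the sense reads in both libraries, so that a few sense reads placed on the wrong strand weigh less, 83 of 1411 genes (5.88%) were lower and 71 (5.03%) higher, so that the excess of lower genes was much smaller. The median was then −0.19 for 20 such genes, against 0.13 for 1411. The part of sense reads on the wrong strand in these medians was not tested otherwise.

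The lower and higher genes were also compared in 3 libraries of mycelia from constant light for 48 h, which were counted in another way and hold 1 library each. The library labelled Δ*wc1* had 1290 reads on *wc-1*, against 332 in *wt*, which goes against its label. The library labelled Δ*wc2* had 141 reads on *wc-2*, against 605 in *wt*. On *vvd*, a target of the WCC, *wt* had 12684 reads, the library labelled Δ*wc1* 384 and the library labelled Δ*wc2* 136. The source of the reads on *wc-1* and *wc-2* in the 2 libraries was not tested. In 115 genes that were lower at 120 min with an interval beyond 2-fold, the median log2 ratio to *wt* was −0.80 in the library labelled Δ*wc1*, against 0.24 for all 7728 genes, and −0.72 in the library labelled Δ*wc2*, against 0.20 for all genes. At least 2-fold lower were 54 of the 115 in the library labelled Δ*wc1* (47.0%, against 6.75% of all genes) and 44 in the library labelled Δ*wc2* (38.3%, against 6.64%). Low levels in these 2 libraries were not particular to the lower genes. Of 144 genes higher at 120 min with an interval beyond 2-fold, 26 (18.1%) and 24 (16.7%) were at least 2-fold lower, in this order. A further 49 (34.0%) and 34 (23.6%) were at least 2-fold higher, against 14.3% and 10.0% of all genes.

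The limit of 2-fold divides genes that hardly differ. Just inside it were NCU07337, with 91 reads at 120 min and 401 at 60 min, and NCU07405, with 6539 reads at 120 min and 7199 at 60 min. Just outside were NCU01812, with 65 reads at 120 min and 285 at 60 min, and NCU01879, with 1124 reads at 120 min and 1238 at 60 min. The minimum was met exactly, with 20 reads in the library with more reads, by 13 genes, and missed by 1 read by 17 genes.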

How the data were processed

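Of the 8 samples of the series, the analysis used the 4 strand-specific *wt* libraries (0, 30, 60 and 120 min of light) and the 3 libraries from constant light. For the strand-specific libraries, Bowtie 2.1.0 was run by the authors against NC10 with up to 3 mismatches. The deposited files hold unnormalized HTSeq counts of each gene (HTSeq version not given in the sources used here), with 1 file per strand. For constant light, the authors deposited counts per exon, which were summed per gene. The mapping of these libraries is not given in the sources used here.

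Lines of unassigned reads were dropped, and counts were divided by the gene reads of each library (CPM). No pseudocount was used, and a count of 0 was set to a floor of 3 reads. Intervals are exact (Clopper-Pearson, 95%) and were tested on simulated data. Reads without molecular identifiers are not independent molecules. With 1 library per time point, no test was run.

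The genes named were drawn from the 10 lower and 10 higher genes with the largest ratios (at least 100 reads, interval beyond 2-fold), the 5 induced genes with the highest ratio, the 5 most abundant genes of each library, the genes of the light, clock, carotenoid, DNA repair and conidiation lists, the extremes of the other lists, and runs of at least 3 neighbors. Longer lists are summarized. *hex-1* and the genes said to be chosen after their values were seen lie outside of this rule. Genes and lists were chosen with earlier results of these data known. The 26 lists were made from symbols. Symbols, lengths and gene order came from RefSeq (NC12), which held 9215 of 9733 genes (94.7%). Of the 7817 genes, 1063 had a symbol. Coordinates were not used, as the builds differ.

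The alternatives were 5 scalings, 4 minimum counts, a pseudocount of 1 CPM, the interval rule and 2 limits of induction. The 30 min library in place of the 60 min library was added after seeing the data. Ratios, intervals and figures were made in Python 3.11.15 (pandas 2.3.3, numpy 2.4.6, scipy 1.17.1, matplotlib 3.10.9), and TMM factors in R 4.3.3 (edgeR 4.0.16).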

Additional observations from a re-analysis of the deposited data

How the results depend on the processing

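With 1 library per time point, depth and sampling limit the weakly expressed genes most, and no setting replaces a second culture. The counts of 179 lower and 382 higher genes moved with the scaling. There were 242 higher genes when all alignments were counted, 284 lower and 185 higher with median-of-ratios factors, and 275 lower and 196 higher with TMM factors. A minimum of 1 read gave 881 higher genes. An interval wholly beyond 2-fold left 116 lower and 146 higher genes. For the induced genes, a limit of 2-fold gave 125 lower genes of 399 with a median of −0.70, and a limit of 8-fold gave 34 of 61, by construction of the larger and smaller sets. With the 30 min library in place of the 60 min library, an alternative added after seeing the data, 314 genes were lower and 727 higher, and genes induced at 60 min had a median of −1.01 (138 genes). All other counts stayed within 1.5 times those reported. The 5 other scalings moved the median of the induced genes to between −1.25 and −1.16. For the 153 named genes, 1186 values under the alternatives lay within the counting interval, and 344 moved outside it. The minimum counts leave these ratios as they are, the scalings move them by at most 0.22 and a pseudocount keeps their sign, so that no gene past 2-fold could change direction. No paired analysis was possible because each time point has 1 library.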

Other observations

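The genes in these paragraphs were chosen after their values were seen and are given as values. A few abundant transcripts lay just within 2-fold. *ccg-14*, a clock-controlled gene, had 19599 reads at 120 min, against 85539 at 60 min, a log2 ratio of −0.99, and *ccg-13* had 35942 reads at 120 min, against 138493 at 60 min, a log2 ratio of −0.81. The catalase gene *cat-1* had 595 CPM at 120 min and 1155 CPM at 60 min. Among genes past 2-fold, *pdx-2* of vitamin B6 synthesis was at 109 CPM in the dark, 585 CPM at 30 min, 517 CPM at 60 min and 240.4 CPM at 120 min. The purine synthesis gene *ad-5* was at 190.0 CPM in the dark, 798 CPM at 30 min, 564 CPM at 60 min and 275 CPM at 120 min. Both were thus raised early and had come down in part.

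Other genes were at least 2-fold higher. The glucose transporter gene *hgt-1* had 110 reads at 120 min, against 60 at 60 min, a log2 ratio of 2.01. The glucoamylase gene *gla-1* had 905 reads at 120 min, against 881 at 60 min, a log2 ratio of 1.18. *xlr-1*, the regulator of xylan breakdown, had 143 reads at 120 min, against 144 at 60 min, a log2 ratio of 1.13. *gla-1* and *xlr-1* fall below 2-fold with median-of-ratios factors. The chitinase gene *chit-1* was at 21.6 CPM in the dark, 7.11 CPM at 30 min, 6.63 CPM at 60 min and 22.9 CPM at 120 min, so that it returned to the dark level. The ergosterol synthesis genes *erg-1* and *erg-4* also dipped. *erg-1* was at 151 CPM in the dark, 47.4 CPM at 30 min, 51.9 CPM at 60 min and 121 CPM at 120 min, and *erg-4* was at 151 CPM in the dark, 33.3 CPM at 30 min, 85.9 CPM at 60 min and 172 CPM at 120 min.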
